A study of Homo sapiens with 12 samples.

Results

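The protocadherins are the largest branch of the cadherin family of calcium-dependent adhesion proteins. The genes described here are those for which a probe set of the array was annotated with exactly 1 gene symbol beginning with PCDH. The Y-linked member and the pseudogenes were left out, and a gene with several probe sets was represented by the one with the highest mean over all arrays. This gave 40 genes from 41 probe sets, of 18417 genes with a probe set of 1 symbol. They comprise 12 alpha, 16 beta and 1 gamma gene of the clusters on chromosome 5, and 11 non-clustered genes. The 3 protocadherin probe sets with several symbols were left out, and the other gamma genes are not analysed here.

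The samples were 12 Affymetrix whole-transcript arrays of A549 and HTB56, with 3 arrays in each of 4 groups. A549 is an established line from a human lung adenocarcinoma, and HTB56, also known as Calu-6, is an established line from a human lung carcinoma. A0R and H0R are the unselected lines (0 rounds), and A3R and H3R are the same lines after 3 rounds of in vivo selection, in which the cells formed tumour nodules in mouse lungs after intravenous injection. All 4 groups are untreated with 5-azacytidine, per the labels. The labels do not say how many selected lines each 3R group stands for or whether mouse cells remained in them. Nor do they say whether a group's arrays come from separate cultures, and the p-values then cover only the spread among these arrays, which may be technical. Comparing 3R with 0R asks which transcripts differ after selection towards a highly metastatic phenotype.

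Clustered protocadherins are encoded in alpha, beta and gamma arrays of similar exons, each with its own promoter. In neurons each cell switches on a small, partly random choice of them through looping by CTCF and cohesin, with DNA methylation silencing the others, and the resulting set of surface proteins acts as a cell identity code. Alpha and gamma transcripts splice a variable first exon to shared constant exons, while beta genes have 1 coding exon and no constant part. Non-clustered protocadherins are scattered over the genome and have been linked to cell adhesion, migration and Wnt signalling in many tissues.

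All values are log2 signals after robust multi-array averaging (RMA), so a difference of 1 is a 2-fold change of signal. Levels of different probe sets are not comparable, because probes differ in affinity, and only differences between groups are read. A gene was tested where at least 3 of 12 arrays put its signal over their own 20th percentile (mean 3.48), and it was called at a limma adjusted p under 0.05 over 16939 genes. Array medians lay between 5.55 and 5.67, and 2 arrays of a group correlated at 0.99 to 0.996. A549 replicate 2 of the unselected group (A0R) stood apart. On the 24 genes at least 4 log2 units higher in both HTB56 groups its median deviation from the median of the 6 A549 arrays was 0.93, and those of the other A549 arrays lay between -0.21 and 0.05. CDH1, the epithelial cadherin, was 9.53 ± 0.02 in A0R and 4.55 ± 0.16 in H0R (SD, n = 3). The 9 epithelial markers summed to 14.6 to 14.8 in A0R and 13.2 to 13.4 in H0R (log2 of the summed signal). HTB56 thus had less summed signal of these markers than A549. Of the 9, 6 were called lower in H0R than in A0R and 0 higher, beside 20.3% and 24.9% of all genes tested. NKX2-1, SFTPB and NAPSA were not called. Of the 40 protocadherins 37 passed the filter. PCDH15 and PCDH19 passed it on 0 arrays and PCDHB4 on 2. PCDHB8 passed only through the H3R arrays, and PCDHB1 on just 3 arrays, spread over A0R, A3R and H0R.

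Selected HTB56 cells carried far more mRNA of PCDHB2 and PCDHB3, neighbouring beta genes, than the unselected line, and smaller rises were called in PCDHB13, PCDHB14, PCDHB8 and PCDHB11. PCDHB5, PCDH7 and PCDH18 fell. In H3R against H0R 9 of the 37 tested protocadherins were called, 6 higher and 3 lower, where 19.5% of all genes tested were called, 8.57% higher and 10.9% lower. With the filter at the array median 5 of 19 were called, 2 higher and 3 lower (26.3%, beside 27.2% of all genes). With the replicate number as a block 9 of 37 were called (24.3%), beside 28.0% of all genes. By subgroup, 7 of the 15 tested beta genes were called, 1 of the 3 delta1 genes, 1 of the 4 tested delta2 genes, and 0 of the 12 alpha genes. The 9 called, the 6 higher and the 7 beta genes include PCDHB8, which was tested only because of its H3R arrays. Whether probes of 1 beta gene hybridise with another is not known, so the 7 may not be separate observations. At an unadjusted p under 0.05 the alpha count was also 0 (28.9% of all genes). The median difference was 0.23 over the tested beta genes, 0.03 over the alpha genes and 0.02 over all genes tested. The values come from whole cultures, so that more cells with a transcript and more transcript per cell cannot be told apart.

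PCDHB3, a beta cluster adhesion protein, showed the largest rise. Its 3 arrays read 3.42, 3.63 and 3.79 in H0R and 7.69, 7.83 and 7.65 in H3R. In A549 it read 3.69, 3.74 and 4.16 in A0R and 3.95, 3.76 and 3.34 in A3R. The 3 H3R arrays stood far above the other 9, which lay between 3.34 and 4.16. The difference H3R minus H0R was 4.11 (SE 0.16, limma adjusted p 7.43e-10), a 17.2-fold change of signal. This was the largest log2 rise among the 16939 genes of that comparison. The H0R arrays lay near the mean 20th percentile of 3.48, so the size of the fold is uncertain.

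PCDHB2, its neighbour upstream, read 4.94, 4.86 and 5.26 in H0R and 8.43, 8.13 and 8.51 in H3R. In A549 it read 6.96, 6.74 and 6.63 in A0R and 7.11, 7.05 and 7.22 in A3R. The order of the groups was therefore H0R, then A0R, then A3R, then H3R, with no overlap between any of the 4. H3R exceeded H0R by 3.33 (SE 0.13, limma adjusted p 7.43e-10), or 10.1-fold. The step from A0R to A3R, 0.35 (SE 0.13, limma adjusted p 0.333), was not called although the arrays did not overlap.

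The promoter sequences of both genes are printed with those of the beta genes on either side, PCDHB1, which was not called, and PCDHB4, which lay below the filter and had no test in that fit, because the 4 lie side by side and the middle pair showed the largest rises. Each line is the 250 bases before the RefSeq start site on the plus strand of chromosome 5, in assembly GRCh38.p14, and capitals mark the letters GGTGGCGCT. The windows are chr5:141051124-141051373 for PCDHB1, chr5:141094365-141094614 for PCDHB2, chr5:141100223-141100472 for PCDHB3 and chr5:141121568-141121817 for PCDHB4.
PCDHB1: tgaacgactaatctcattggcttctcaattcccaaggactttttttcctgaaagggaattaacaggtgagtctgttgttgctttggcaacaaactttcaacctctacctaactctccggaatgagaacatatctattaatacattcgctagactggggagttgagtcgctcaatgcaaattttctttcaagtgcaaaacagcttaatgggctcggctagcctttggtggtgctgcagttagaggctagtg
PCDHB2: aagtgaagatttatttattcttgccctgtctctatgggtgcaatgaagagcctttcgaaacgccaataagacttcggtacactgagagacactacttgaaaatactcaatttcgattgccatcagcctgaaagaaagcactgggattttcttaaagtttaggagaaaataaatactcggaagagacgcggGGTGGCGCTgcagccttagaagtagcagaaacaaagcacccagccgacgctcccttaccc
PCDHB3: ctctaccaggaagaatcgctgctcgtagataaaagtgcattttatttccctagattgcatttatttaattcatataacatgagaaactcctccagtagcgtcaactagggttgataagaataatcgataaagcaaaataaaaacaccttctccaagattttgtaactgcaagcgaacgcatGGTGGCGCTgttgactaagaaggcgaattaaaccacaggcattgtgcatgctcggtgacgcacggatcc
PCDHB4: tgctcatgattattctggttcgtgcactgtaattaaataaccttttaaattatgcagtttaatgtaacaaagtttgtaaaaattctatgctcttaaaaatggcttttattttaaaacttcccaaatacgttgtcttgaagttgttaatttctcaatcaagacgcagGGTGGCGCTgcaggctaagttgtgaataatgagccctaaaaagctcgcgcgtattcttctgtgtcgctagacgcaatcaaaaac

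The letters GGTGGCGCT contain CGCT, the core of the conserved element of clustered protocadherin promoters, and were chosen after the beta promoters had been seen. Searched on both strands of the 300-base windows (250 before to 50 after the start site), they stood in 13 of the 14 beta promoters of the table, always on the gene's own strand and beginning at positions -84 to -2 from the start site. PCDHB1 was the beta promoter without them. They stood in 0.501% of the 35116 promoters of the table, and in 0 of 10 alpha, 0 of 2 gamma and 0 of 10 non-clustered protocadherin promoters. The shorter CGCT stood in the windows of all clustered members that were in the table and in 70.0% of all promoters. The 9 letters stood in all 5 promoters of genes called higher in H3R that are in the table, in 7 of 8 promoters of the other tested beta genes, and in that of PCDHB4. The 5 genes called higher held 8 to 12 CpG dinucleotides per window (median 10), the other 8 tested genes held 5 to 9 (median 6), and PCDHB4 held 12. Across all promoters the median was 14. The split follows the calls themselves, and the 5 include PCDHB8, tested only because of its H3R arrays. The windows of PCDHB8 and PCDHB13, also among the 5, were 93.8% equal, so they are not separate observations. A link of CpG count or of the 9 letters with the rise was not tested. PCDHB6 and PCDHB11 are not in the promoter table.

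PCDHB13 and PCDHB14 lie further along the cluster. PCDHB13 read 3.25, 3.16 and 3.22 in H0R and 4.57, 4.61 and 4.82 in H3R, a difference of 1.46 (SE 0.14, limma adjusted p 4.48e-06). PCDHB14 read 4.0, 4.05 and 4.14 in H0R and 5.67, 5.34 and 5.13 in H3R, a difference of 1.32 (SE 0.17, limma adjusted p 8.47e-05). In both genes every H3R array lay above every other array of the study, and in A549 PCDHB13 spanned 2.93 to 3.74 and PCDHB14 3.35 to 4.06.

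PCDHB8 was near the dim level outside H3R. It read 2.66, 2.72 and 2.88 in H0R and 3.63, 4.55 and 3.99 in H3R, and in A549 its range was 2.52 to 3.70. The difference H3R minus H0R was 1.30 (SE 0.26, limma adjusted p 0.00234), and since the gene was tested only because of its H3R arrays, its call is a description. The promoter windows of PCDHB8 and PCDHB13 were alike: 243 of 259 bases (93.8%) were equal in the best ungapped alignment, against 44.2% in the next most alike pair of beta promoters and a median of 34.3% over 91 pairs. Beta genes have closely related coding exons, and whether probes of one hybridise with another is not known. The separate rise of each beta gene called higher is therefore uncertain.

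PCDHB4 stayed below the filter and has a value only in the fit on all 18417 genes. It read 3.01, 2.52 and 2.62 in H0R and 3.91, 3.73 and 3.36 in H3R, and spanned 2.68 to 2.94 in A549. In the unfiltered fit H3R exceeded H0R by 0.95 (SE 0.15, limma adjusted p 0.000339). The 3 H3R arrays were the highest of the 12, and 1 of them still lay below the mean 20th percentile of 3.48.

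PCDHB11 and PCDHB5 were called by a narrow margin. PCDHB11 read 4.20, 3.92 and 4.46 in H0R and 4.81, 4.33 and 5.14 in H3R, and the groups overlapped. Its difference was 0.57 (SE 0.19, limma adjusted p 0.0496). The call was lost without replicate 1 or 2 of A0R, replicate 1 or 2 of A3R, replicate 1 or 2 of H0R, or replicate 1 or 3 of H3R (limma adjusted p 0.0578 to 0.217). PCDHB11 also missed the threshold with no filter (0.0519), with median centring (0.0562), with cyclic loess (0.0608) and in the fit on 6 arrays (limma adjusted p 0.0744). PCDHB5 read 4.33, 4.22 and 4.75 in H0R and 3.77, 3.92 and 3.68 in H3R, with no overlap, a difference of -0.65 (SE 0.21, limma adjusted p 0.041). The PCDHB5 call was lost without replicate 1 of A0R, replicate 2 of A3R, replicate 1 or 3 of H0R, or any 1 of the 3 H3R arrays (limma adjusted p 0.0504 to 0.164).

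The other 8 tested beta genes were not called in HTB56, and their differences ranged from -0.14 to 0.56. PCDHB16, at the upper end, read 3.89, 4.12 and 4.58 in H0R and 4.85, 4.78 and 4.65 in H3R (0.56, SE 0.24, limma adjusted p 0.127). The groups did not overlap. It was called in the fit on 6 arrays (limma adjusted p 0.0319) and without A0R replicate 2 (0.0437) or A0R replicate 3 (0.034). PCDHB9 differed by 0.23 (SE 0.10, limma adjusted p 0.152), also with no overlap. The other 6, PCDHB1, PCDHB6, PCDHB7, PCDHB10, PCDHB12 and PCDHB15, had group means between 3.28 and 3.89 in HTB56.

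**Figure D1:**
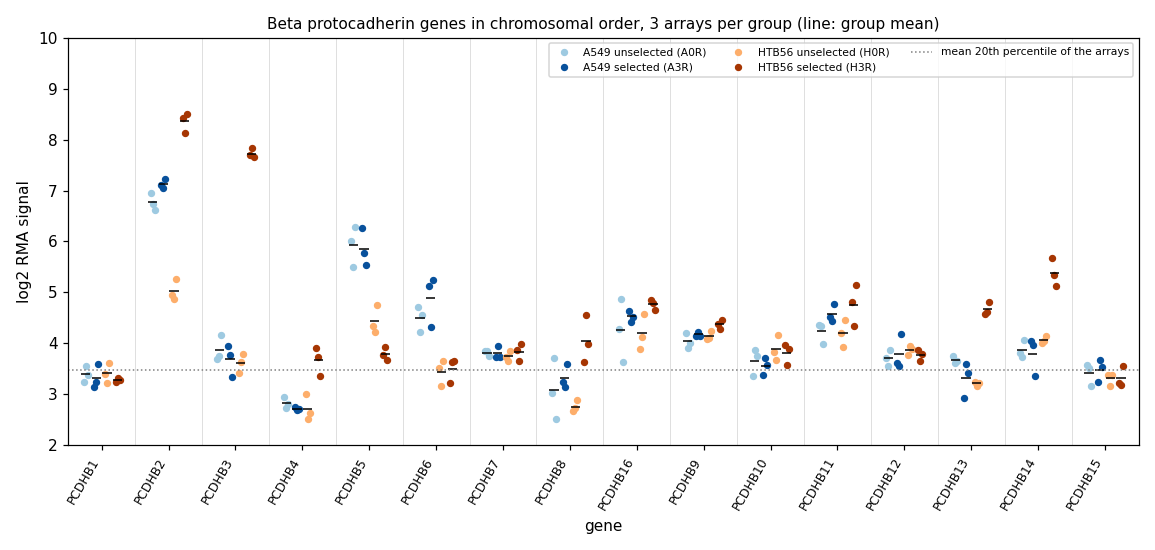
Log2 RMA signal of the 16 beta protocadherin genes in chromosomal order, with 1 point per array, a bar at each group mean of 3 arrays and a dotted line at the mean 20th percentile (3.48). The H3R points of PCDHB2 (8.13 to 8.51) and PCDHB3 (7.65 to 7.83) lie above all others of their gene, while PCDHB5 and PCDHB6 lie lower in both HTB56 groups than in A549.

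The genes around the clusters did not share the rise of the beta genes as a group. Of 39 tested genes around and within the clusters that are no protocadherins, 7 were called in H3R against H0R, 2 higher and 5 lower, or 17.9% beside the 19.5% of all genes tested, with a median difference of -0.02. SLC25A2, a mitochondrial ornithine carrier, and TAF7, a subunit of the transcription factor TFIID, lie between the beta and gamma clusters and differed by 0.03 (SE 0.16, limma adjusted p 0.931) and -0.07 (SE 0.09, limma adjusted p 0.734). The flanking genes ZMAT2 and DIAPH1 differed by -0.16 (SE 0.13, limma adjusted p 0.511) and 0.03 (SE 0.11, limma adjusted p 0.92). The largest called differences among the 39 were CXXC5 (-2.14), NR3C1, the glucocorticoid receptor (0.74), SPRY4, an inhibitor of receptor tyrosine kinase signalling (-0.69), and ARHGAP26 (-0.55), all outside the clusters. In A3R against A0R 2 of the 39 were called, 0 higher and 2 lower (5.13%, beside 1.75% of all genes tested). They were SLC23A1 (-1.06) and CXXC5 (-0.56). Along the beta cluster the genes that rose were interspersed with genes that were not called, and PCDHB1 at one end and PCDHB15 at the other were not called.

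**Figure D2:**
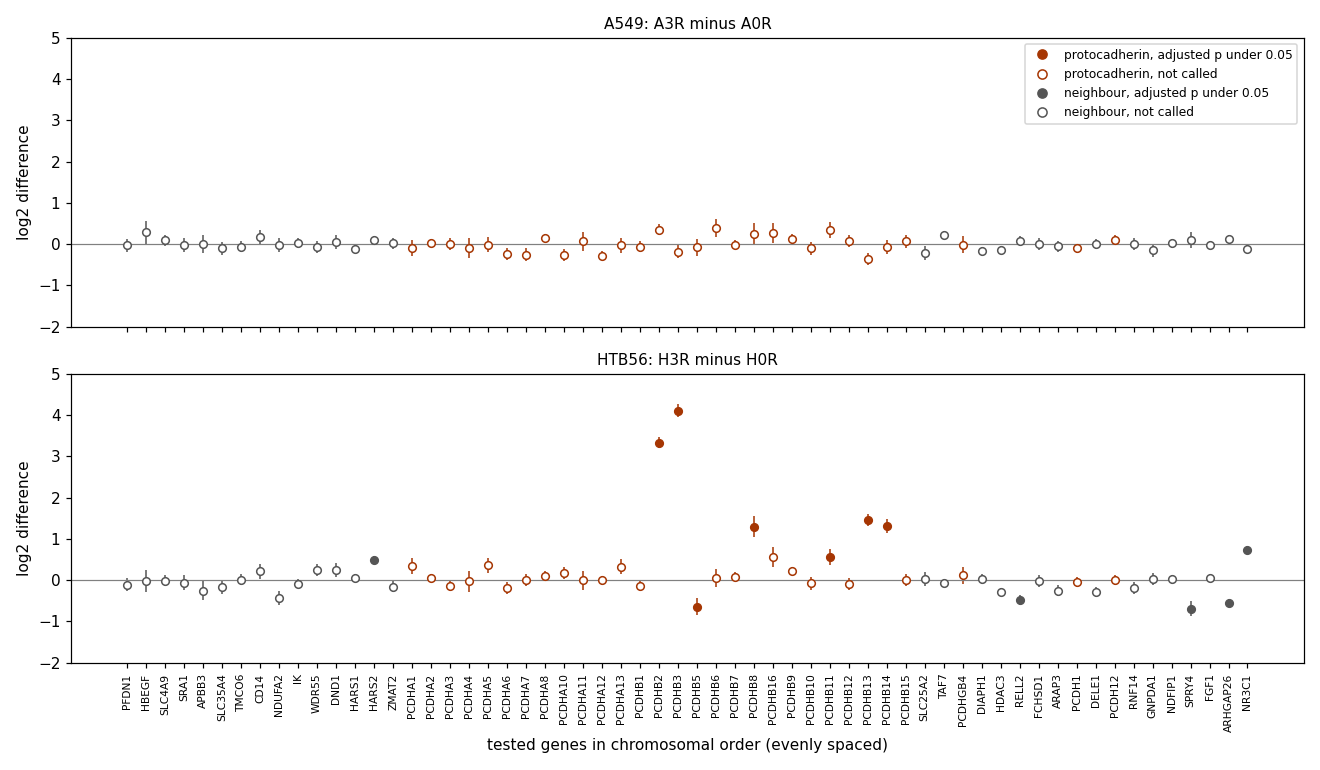
Log2 difference of 3R minus 0R (vertical axis, bars of 1 SE) for tested genes in chromosomal order along the alpha, beta and gamma clusters and beside them, for A549 above and HTB56 below. Filled points are called at a limma adjusted p under 0.05: in HTB56 PCDHB3 (4.11) and PCDHB2 (3.33) stand out and the alpha genes lie near 0, while no point shown for A549 is filled. Tested genes before PFDN1 are not drawn. Among them are CXXC5 (-0.56 in A549, -2.14 in HTB56) and SLC23A1 (-1.06 in A549), which were called lower at these values.

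PCDH7 and PCDH18, non-clustered genes on chromosome 4, fell with selection in HTB56. PCDH7, a delta1 protocadherin that binds protein phosphatase 1 and has been studied in lung cancer and metastasis, read 8.55, 8.66 and 8.38 in H0R and 7.41, 7.09 and 6.91 in H3R. The groups did not overlap, and the difference was -1.39 (SE 0.17, limma adjusted p 3.71e-05), a 2.63-fold lower signal. PCDH18, a delta2 protocadherin, read 6.29, 6.60 and 6.98 in H0R and 5.72, 5.21 and 5.44 in H3R. It also showed no overlap and differed by -1.17 (SE 0.18, limma adjusted p 0.000324), 2.25-fold lower. Both remained far above their A549 levels, of 4.80 to 5.33 for PCDH7 and 3.39 to 3.99 for PCDH18.

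The 12 alpha genes and PCDHGB4 differed little between H3R and H0R. Alpha differences ran from -0.18 to 0.36, the lowest limma adjusted p was 0.228, and PCDHGB4 differed by 0.12 (SE 0.20, limma adjusted p 0.792). PCDHA5, at the upper end, was called without H3R replicate 1 (0.60, limma adjusted p 0.0168). The remaining non-clustered genes PCDH1, PCDH8, PCDH9, PCDH10, PCDH12, PCDH17 and PCDH20 ranged from -0.19 to 0.09 and none was called. Groups without overlap occurred in 12 of the 37 tested genes in HTB56, 8 higher and 4 lower, beside 34.3% of all genes tested. The 8 higher include PCDHB8, tested only because of its H3R arrays.

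In A549 no protocadherin was called: 0 of 37 in A3R against A0R by limma, beside 1.75% of all genes tested (0.945% higher, 0.809% lower), with 4 of 37 at an unadjusted p under 0.05 (9.97% of all genes). These 4, named after their values were seen, were PCDH9, PCDHB2, PCDHA12 and PCDHB13. PCDH9, a delta1 protocadherin, read 7.14, 7.24 and 7.72 in A0R and 6.68, 6.36 and 6.90 in A3R. The groups did not overlap, and the difference was -0.72 (SE 0.20, limma adjusted p 0.099). With the replicate number as a block PCDH9 was called lower (limma adjusted p 0.00193) and the count became 1 of 37, while the calls over all genes rose from 297 to 562 (3.32%). PCDHA12 differed by -0.28 (SE 0.11, limma adjusted p 0.327) and PCDHB13 by -0.36 (SE 0.14, limma adjusted p 0.363). The median A549 difference over the 37 tested genes was -0.01, and 6 of them had groups that did not overlap, beside 12.7% of all genes tested.

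The selection changes of both lines were compared directly by the difference of the changes, HTB56 minus A549. This difference was called for 6 of the 37 tested protocadherins, 4 higher and 2 lower, beside 11.8% of all genes tested (5.22% higher, 6.58% lower). With the replicate block it was called for 7 of the 37 (18.9%), beside 20.4% of all genes. It was 4.29 for PCDHB3 (SE 0.23, limma adjusted p 4.51e-08) and 2.98 for PCDHB2 (SE 0.19, limma adjusted p 2.82e-07). It was 1.81 for PCDHB13 (SE 0.20, limma adjusted p 3.22e-05) and 1.39 for PCDHB14 (SE 0.25, limma adjusted p 0.00175). The size for PCDHB13 is uncertain, since its H0R arrays lay below the mean 20th percentile. That for PCDHB3 is uncertain too, as its arrays outside H3R lay near that percentile. These 4 beta genes moved upward in HTB56, and in A549 their changes lay between -0.36 and 0.35. PCDH7 differed by -1.30 (SE 0.24, limma adjusted p 0.00223) and PCDH18 by -1.30 (SE 0.25, limma adjusted p 0.0037), lower in HTB56 and -0.09 and 0.13 in A549. Without A0R replicate 2, the array that stood apart, these were -1.40 and -1.33 and still called, and the count remained 6.

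PCDHB8 missed the threshold in the difference of the changes (1.05, SE 0.37, limma adjusted p 0.0825). It passed without A0R replicate 3 (limma adjusted p 0.0167) or without H3R replicate 1 (0.0441). PCDHB11 and PCDHB5, called in HTB56, differed from their A549 changes by 0.23 (SE 0.27, limma adjusted p 0.697) and -0.57 (SE 0.29, limma adjusted p 0.262). A selection change particular to HTB56 was thus not shown for these 3 genes. With the replicate block PCDH9 was called too, at 0.52 (limma adjusted p 0.0158).

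More protocadherins differed between the lines than between selected and unselected cells of either line. In H0R against A0R 20 of the 37 tested protocadherins were called, 2 higher and 18 lower in HTB56, beside 45.2% of all genes tested, of which 24.9% were higher and 20.3% lower. In H3R against A3R 23 were called, 7 higher and 16 lower, beside 44.6% of all genes tested (24.9% higher, 19.7% lower). All 20 genes called between the unselected lines were also called between the selected ones, 18 in the same direction and 2 in the opposite one. The 3 genes called between the selected lines alone were PCDHB3, PCDHB14 and PCDHB8, of which PCDHB8 entered the test only through its H3R arrays. Groups did not overlap in 20 of 37 genes for the unselected lines and 26 of 37 for the selected ones, beside 53.2% and 51.6% of all genes tested. With the replicate block 20 of 37 were called between the unselected lines (54.1%, beside 53.7% of all genes). Between the selected lines 24 were called with it (64.9%, beside 52.7%). With the filter at the array median 17 of 19 were called between the unselected lines, 2 higher and 15 lower (89.5%, beside 58.5% of all genes). Between the selected lines 18 of 19 were then called, 4 higher and 14 lower (94.7%, beside 57.8%). The 19 include alpha genes, whose probe sets may not measure separate transcripts.

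PCDH9 and PCDH7 showed the largest differences between the unselected lines, in opposite directions. PCDH9 read 3.65, 3.62 and 4.02 in H0R and 3.48, 3.28 and 3.94 in H3R, so every HTB56 array lay more than 2 log2 units below every A549 array. Its difference H0R minus A0R was -3.60 (SE 0.20, limma adjusted p 1.18e-09), 12.1-fold lower, and H3R minus A3R was -3.08. The HTB56 arrays of PCDH9 lay near the mean 20th percentile of 3.48, so the size of the fold is uncertain. PCDH7 was 3.43 higher in H0R than in A0R (SE 0.17, limma adjusted p 3.92e-10), 10.8-fold, and 2.13 higher in H3R than in A3R. PCDH18 was 2.98 higher in H0R (SE 0.18, limma adjusted p 3.87e-09) and 1.68 higher in H3R. The A549 arrays of PCDH18 lay near the mean 20th percentile, so these sizes are uncertain too. Without A0R replicate 2, in which PCDH7 and PCDH18 read 5.28 and 3.71, the unselected differences were 3.52 and 3.01.

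**Figure D3:**
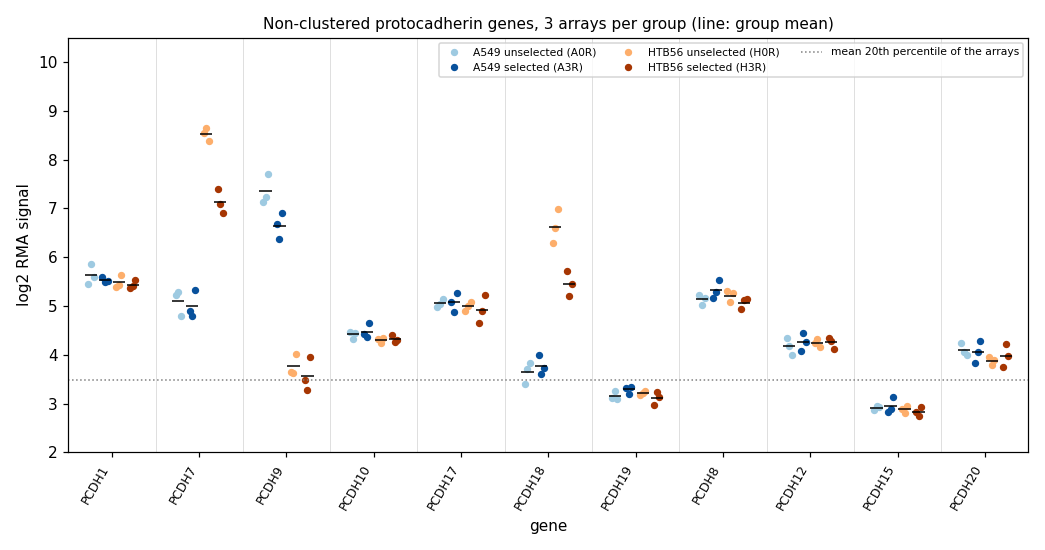
Log2 RMA signal of the 11 non-clustered protocadherin genes, with 1 point per array, a bar at each group mean of 3 arrays and a dotted line at the mean 20th percentile (3.48). PCDH7 and PCDH18 are high in HTB56 and lower after selection, PCDH9 is high in A549, and PCDH15 and PCDH19 lie below the line in every group mean.

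Among the beta genes the lines differed in both directions once selected. PCDHB2 was lower in H0R than in A0R (-1.75, SE 0.13, limma adjusted p 5.39e-08) and 1.23 higher in H3R than in A3R (SE 0.13, limma adjusted p 2.85e-06), so the order of the lines turned. PCDHB13 was 1.36 higher in H3R than in A3R (SE 0.14, limma adjusted p 1.7e-06). Between the unselected lines it differed by -0.46 (SE 0.14, limma adjusted p 0.0155), but its 3 H0R arrays lay below the mean 20th percentile, so this size is uncertain. Its call between the unselected lines was lost without A0R replicate 1 (-0.42, limma adjusted p 0.0525). PCDHB3 was not called between the unselected lines (-0.25, SE 0.16, limma adjusted p 0.239) and was 4.04 higher in H3R than in A3R, or 16.4-fold. Its A3R arrays lay near the mean 20th percentile, so the size of this fold is uncertain. PCDHB14 was 1.59 higher in H3R. PCDHB8 was 0.73 higher (limma adjusted p 0.0328), a description again, since it was tested only because of its H3R arrays. The PCDHB8 call was lost without A3R replicate 1 (0.0879) or 2 (0.107) and without H3R replicate 2 (0.171) or 3 (limma adjusted p 0.0526).

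PCDHB5 and PCDHB6, beta genes shortly after the pair that rose, were higher in A549 throughout. PCDHB5 read 6.02, 5.50 and 6.28 in A0R and 6.26, 5.77 and 5.54 in A3R, above every HTB56 array. Its line difference was -1.49 (SE 0.21, limma adjusted p 2.75e-05) unselected and -2.07 (SE 0.21, limma adjusted p 1.15e-06) selected. PCDHB6 read 4.71, 4.21 and 4.56 in A0R, 5.12, 4.33 and 5.24 in A3R, 3.52, 3.16 and 3.64 in H0R and 3.23, 3.63 and 3.65 in H3R. Its line difference was -1.05 (SE 0.22, limma adjusted p 0.000945) and then -1.39 (SE 0.22, limma adjusted p 9.28e-05). The HTB56 arrays of PCDHB6 lay near the mean 20th percentile, so these sizes are uncertain. Of the beta genes from PCDHB2 to PCDHB6, PCDHB2 and PCDHB3 were thus higher in selected HTB56, and PCDHB5 and PCDHB6 higher in A549.

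All 12 alpha genes were called lower in HTB56 than in A549, both unselected (-2.11 to -0.61, median -1.28) and selected (-1.83 to -0.59, median -1.06). PCDHA12 showed the largest difference. It read 7.70, 7.70 and 7.55 in A0R, 7.48, 7.40 and 7.22 in A3R, 5.51, 5.61 and 5.51 in H0R and 5.43, 5.49 and 5.71 in H3R. The lines were separated by more than 1 log2 unit in every array, with a difference of -2.11 (SE 0.11, limma adjusted p 5.64e-10) unselected and -1.83 (SE 0.11, limma adjusted p 3.52e-09) selected. PCDHA3 and PCDHA5 are given in full by the naming rule, which takes no order of levels between genes. PCDHA3 read 7.88, 7.85 and 8.18 in A0R, 7.81, 8.08 and 8.05 in A3R, 6.90, 7.19 and 6.98 in H0R and 6.65, 6.85 and 7.19 in H3R. Its line differences were -0.94 (SE 0.14, limma adjusted p 7.31e-05) and -1.09 (SE 0.14, limma adjusted p 2.04e-05). PCDHA5 read 7.47, 7.76 and 7.88 in A0R and 6.36, 6.28 and 5.98 in H0R, a difference of -1.50 (SE 0.18, limma adjusted p 8.49e-06), and -1.13 (SE 0.18) after selection.

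PCDHA11 was the alpha gene whose unselected groups overlapped. It read 6.25, 5.25 and 6.06 in A0R and 4.95, 4.58 and 5.36 in H0R. Here 1 array of each line overlapped, and the difference was -0.90 (SE 0.23, limma adjusted p 0.0049). The other 11 alpha genes had every H0R array below every A0R array. PCDHA1 was called lower between the selected lines (-0.64, SE 0.19, limma adjusted p 0.0143), but not without A3R replicate 1 (0.0727) or H3R replicate 1 (0.0665). PCDHGB4, the gamma gene, differed by -0.80 between H0R and A0R (SE 0.20, limma adjusted p 0.00451) and by -0.67 between H3R and A3R (SE 0.20, limma adjusted p 0.0137), the latter not called without A3R replicate 2 (0.0507) or H3R replicate 1 (limma adjusted p 0.0783). PCDHA4, PCDHA6, PCDHA7, PCDHA8, PCDHA10 and PCDHA13 differed between the unselected lines by -0.68 to -1.53. Both probe sets of PCDHA2 were lower in H0R, with means of 5.04 and 4.42 for the brighter and 4.73 and 3.97 for the other.

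The uniform direction of the alpha genes comes with a limit of measurement. Alpha transcripts share their constant exons, and the files do not say in which exons the probes lie, so the alpha probe sets may not measure 12 separate transcripts. All 14 alpha and gamma probe sets belong to the same number series of probe set identifiers, apart from the beta sets. Of them 13 had all H0R arrays below all A0R arrays, with a median difference of -1.13. The other 141 named probe sets of that number series had a median of 0.11, and 12.1% lay lower without overlap, beside 25.1% of all named probe sets above the filter. The probe set annotated with 15 alpha symbols, outside the rule, had means of 5.60 in A0R, 5.40 in A3R, 5.00 in H0R and 4.87 in H3R (SD 0.04 to 0.09, n = 3), also lower in HTB56.

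**Figure D4:**
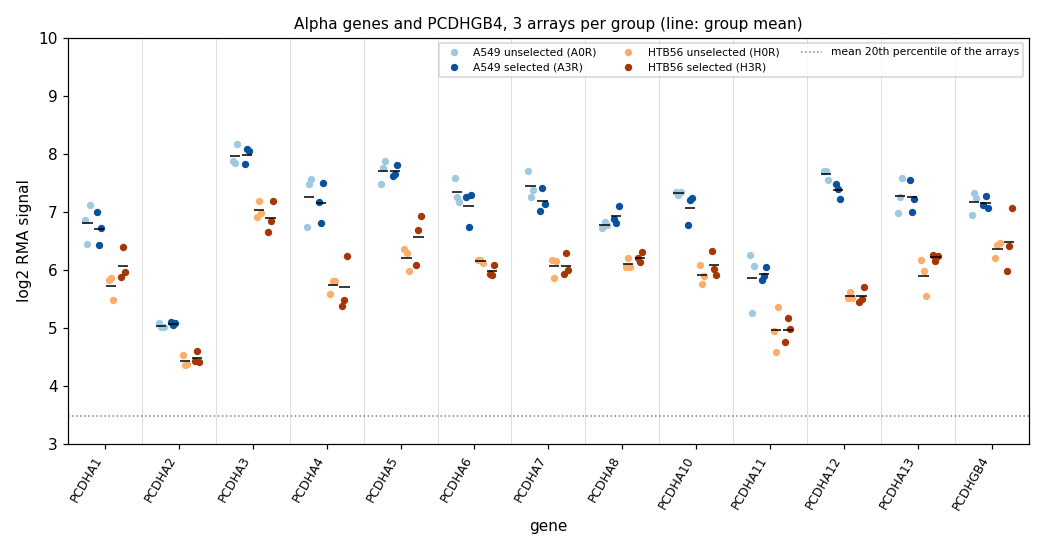
Log2 RMA signal of the 12 alpha genes and PCDHGB4, with 1 point per array, a bar at each group mean of 3 arrays and a dotted line at the mean 20th percentile (3.48). In each gene both HTB56 group means lie below both A549 group means, and PCDHA12 shows the widest gap (-2.11 unselected).

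The non-clustered genes other than PCDH7, PCDH9 and PCDH18 differed little between the lines. PCDH1, PCDH8, PCDH10, PCDH12, PCDH17 and PCDH20 were not called in either line comparison. PCDH8, read at 5.16, 5.28 and 5.53 in A3R and 4.94, 5.12 and 5.14 in H3R, had no overlap between the selected lines (-0.26, SE 0.12, limma adjusted p 0.0913). It was called with the replicate block (0.0494) and without A3R replicate 1 (limma adjusted p 0.041). PCDH15, a component of the tip links of sensory hair cells, and PCDH19, mutated in an inherited epilepsy, had group means of 2.83 to 3.29, below the 20th percentile of the arrays.

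Genes that control the clustered promoters were looked at beside the members. Of 31 such genes tested, 10 were called in H3R against H0R, 3 higher and 7 lower, or 32.3% beside 19.5% of all genes tested, with a median of -0.11. With the filter at the array median 27.2% of all genes were called, and this list was not counted under that filter. The largest were TET2, an enzyme of DNA demethylation (-0.83), STAG1 and RAD21, subunits of cohesin (-0.76 and -0.49), and NIPBL, which loads cohesin (0.57). CTCF, which anchors the promoter loops, differed by 0.08 (SE 0.11, limma adjusted p 0.727). In A549 1 of the 31 was called, the DNA methyltransferase DNMT3B (-0.65, SE 0.11, limma adjusted p 0.00489). Their part in the beta cluster values was not tested.

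Of 28 tested binding partners and signalling proteins of protocadherins, 7 were called in H3R against H0R, 2 higher and 5 lower (25.0% beside 19.5%). The share of all genes was 27.2% with the filter at the array median, under which this list was not counted. PTK2, the focal adhesion kinase that clustered protocadherins inhibit, fell (-0.68, SE 0.09, limma adjusted p 6.24e-05), as did BRK1, a subunit of the WAVE complex (-0.54), the Src-family kinase FYN (-0.48) and the Wnt receptor RYK (-0.43). In A549 2 were called: CDH2, N-cadherin, rose by 1.90 (SE 0.21, limma adjusted p 0.000154) and CYFIP2, a WAVE complex subunit, fell (-0.47, SE 0.10, limma adjusted p 0.0281).

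Some genes listed as markers of other cell types differed between selected and unselected HTB56. Of 9 tested neuronal and neuroendocrine markers 5 were lower in H3R, among them SYP (-3.02) and CHGB (-3.62), and the list summed to 10.93 to 11.07 in H0R and 9.06 to 9.16 in H3R (log2 of the summed signal). Of 8 tested fibroblast markers 4 were higher, COL1A1, COL3A1, LUM and PDGFRA (0.71 to 1.78), with sums of 8.85 to 9.08 and 9.67 to 9.77. Of 7 tested leukocyte markers 2 were higher, LYZ and CD68, with sums of 9.06 to 9.28 and 9.57 to 9.94, and of 6 endothelial markers 0 were called. Of all genes tested 19.5% were called in H3R against H0R, 8.57% higher and 10.9% lower. The fibroblast sum rose in A549 too, from 9.03 to 9.13 in A0R to 9.43 or more in A3R. There 1 of the 8 fibroblast markers was called, C1R (0.81, SE 0.12, limma adjusted p 0.00227), beside 1.75% of all genes. Of the neuronal and neuroendocrine markers SNAP25 was called lower in A549 (-0.54), and 0 leukocyte and 0 endothelial markers were called. The part of these markers in the protocadherin changes was not tested.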

How the data were processed

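RNA of 12 samples of A549 and HTB56 was hybridised to Affymetrix whole-transcript arrays, 3 per group. Per the submitters' processing notes, the authors used Affymetrix Expression Console and RMA (no versions given), and the deposited table holds log2 values. RMA subtracts background, quantile-normalizes arrays and summarises probe sets, so differences of dim genes are compressed and a global shift is removed. Scanner files were not used here. It had 33297 probe sets and 0 missing values, and 0 arrays were identical.

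The platform annotation named the probe sets: 19460 had 1 symbol, 1754 several and 12083 none. Kept were probe sets that exceeded their array's 20th percentile on 3 or more of 12 arrays, and the brightest probe set represented a gene, which gave 16939 genes. The fit used R 4.3.3 with limma 3.58.1 (lmFit, eBayes, 1 mean per group over all 12 arrays, two-sided, Benjamini-Hochberg over all genes, threshold 0.05), and the precision is limited by the number of arrays. With 3 arrays against 3 an exact permutation test of 1 value cannot go below a p of 0.1, so none was run. The limma script was tested on simulated data with known changes. Tables and figures used Python 3.11.15, pandas 2.3.3 and matplotlib 3.10.9. Promoter sequences and gene order come from RefSeq (GRCh38.p14), and all 40 members matched its gene table by Entrez identifier.

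The members and lists were chosen with earlier results of these data known. Named are the members called in a selection comparison or in both line comparisons, the 3 members of highest mean signal (PCDHA3, PCDHA5 and PCDHB2), and up to 4 called genes per other list. Further members are named by range or as exceptions after their values were seen. The lists were control of the clustered promoters, binding partners and signalling, neighbours of the clusters, and markers of epithelium, fibroblasts, endothelium, leukocytes and neuronal or neuroendocrine cells.

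Groups share replicate numbers whose meaning is not given. Deviations from the group mean correlated at 0.16 to 0.549 between arrays of the same number and at -0.417 to 0.204 otherwise, and 12 of 12 arrays matched their own number best. The data thus treat equal numbers as pairs, and the fit with the replicate block is given beside a result where it changes a call. Other alternatives were the filter, the mean of all probe sets, median centring, cyclic loess, the 6 arrays compared, eBayes with trend and robust settings, and leaving out each array.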

Additional observations from a re-analysis of the deposited data

Results flagged for a closer look

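For 6 protocadherins the change with selection differed between the lines by limma's test of the difference (HTB56 change minus A549 change, adjusted p under 0.05). It was 4.29 for PCDHB3, 2.98 for PCDHB2, 1.81 for PCDHB13 and 1.39 for PCDHB14, each with a rise in HTB56. It was -1.30 for PCDH7 and -1.30 for PCDH18, each with a fall in HTB56. In the same test 11.8% of all genes were called.

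The pseudogene PCDHB17P, which lies between PCDHB6 and PCDHB7, was left out of the members but was tested among all genes. It read 3.61, 3.89 and 3.66 in H0R and 4.11, 4.41 and 4.24 in H3R, with no overlap, a difference of 0.53 (SE 0.13, limma adjusted p 0.00747). In A549 it differed by -0.15 (SE 0.13, limma adjusted p 0.806).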

How the results depend on the processing

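Over 64 pairs of gene and comparison with a call under some setting, the alternatives gave 1255 values. Of these 1217 kept their side of the threshold, 28 lost a call, 10 gained one and 0 reversed direction. The count of protocadherins called in A3R against A0R rose from 0 to 1 with the replicate block (PCDH9). In H3R against H0R it fell from 9 to 5 with the filter at the array median, which leaves 19 members to test. The split went from 6 higher and 3 lower to 2 higher and 3 lower, and 26.3% of the members beside 27.2% of all genes were then called. Of all genes, A3R against A0R gave 297 calls, 179 with the 6 arrays alone and 562 with the replicate block. For the difference of the changes over all genes the replicate block raised the count from 2000 to 3458, and for H3R against H0R from 3298 to 4744. The block changed calls of members only for PCDH9 (A549 change and difference of the changes) and PCDH8 (selected lines).

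Leaving out 1 array gave 0 to 0 members called in A549, 7 to 10 in HTB56, 6 to 7 for the difference, 19 to 20 between unselected and 21 to 23 between selected lines. Over all genes the ranges were 179 to 286, 2491 to 3432, 1524 to 1951, 6705 to 7805 and 6656 to 7669. The A549 count fell by over 1.5 times without A0R replicate 1 (179), A0R replicate 2 (192) or A3R replicate 2 (192). The fit on 6 arrays was not run for the difference, which needs all 12. Members near the 20th percentile have compressed differences, and 3 had no value in the filtered fit.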
